A study of Homo sapiens with 4 samples.

Results

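The genes described here are YAP1, WWTR1 (the gene of TAZ), the transcription factor genes TEAD1, TEAD2, TEAD3 and TEAD4, the kinase genes LATS1 and LATS2, and the junctional adaptor genes AMOTL2 and AJUBA. They were taken by symbol from a table of 16376 genes, and all 10 were found. The table comes from LASCPC-01, a human neuroendocrine prostate cancer line that was made by introducing N-Myc and activated AKT1 into benign prostate epithelium. Cells treated with ketotifen, an H1 antihistamine that came out of the study's drug screen, were compared with cells given PBS. Both arms were labelled day 3 and genotype WT, each had 2 libraries made with a stranded mRNA kit, and the dose is not given in the labels. All libraries thus share the line's introduced N-Myc and AKT1, and results from a single line cannot stand for other tumours. In bulk RNA, fewer cells of a type and less RNA per cell cannot be told apart.

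YAP and TAZ are coactivators that do not bind DNA themselves and act through TEAD factors at promoters and enhancers. In the Hippo pathway, MST kinases (genes STK3 and STK4) activate LATS1 and LATS2, which phosphorylate YAP and TAZ so that they are held in the cytoplasm or degraded. Angiomotin-family proteins such as AMOTL2 also hold YAP and TAZ at cell junctions, while AJUBA, a LIM-domain adaptor, binds and restrains LATS kinases. LATS2 and AMOTL2 are also YAP and TAZ targets, which gives the pathway negative feedback. Neuroendocrine cancers are known to often lack YAP1 expression.

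The values are FPKM, fragment numbers adjusted for gene length and sequencing depth, as deposited by the authors, so levels can be set side by side between genes. Group values are mean ± SD with n = 2 libraries each. Read numbers per gene were recovered from the steps of the FPKM values and are given up to a common factor per gene. They sum to 34202662 and 31478171 reads in ketotifen libraries A and B and to 30628248 and 32401413 reads in PBS libraries A and B. Of the neuroendocrine markers, UCHL1 stood at 488 ± 2.42 FPKM with ketotifen and 446 ± 16.4 FPKM with PBS. INSM1 and NCAM1 were also expressed, but SYP stayed under 0.6 FPKM and CHGA had 0 to 7 reads in each library, so the neuroendocrine label rests on part of its marker set. TP63 and KRT5, which define basal prostate epithelium, a cell type rich in YAP, had at most 1 and 7 reads in any library, while the integrin genes ITGA6 and ITGB4 of the same marker list were expressed (12.3 ± 0.526 and 1.23 ± 0.0798 FPKM with ketotifen, 14.4 ± 0.516 and 1.61 ± 0.0614 FPKM with PBS). Endothelial markers summed to 0.126 and 0.188 FPKM with ketotifen and to 0.218 and 0.2204 FPKM with PBS. Of the fibroblast markers, COL1A1 had 520 and 389 reads with ketotifen and 493 and 565 reads with PBS, DCN had 30 and 38 against 49 and 31 reads, and PDGFRB was listed at 0 throughout.

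The sequences below lie before RefSeq starts of these genes, and the starts used in these cells were not measured. First come the 250 bases before the RefSeq start (GRCh38.p14) of YAP1, TEAD3 and LATS2. TEAD3 was well expressed, while YAP1 and the target gene LATS2 were under 1 FPKM. Also given are the sites of at most 30 bases around the only GGAATG matches at starts of AMOTL2 and AJUBA. GGAATG is the core TEAD binding motif and was searched on both strands, and capitals mark it or its reverse complement CATTCC. All are written 5′ to 3′ on the gene's strand.
YAP1: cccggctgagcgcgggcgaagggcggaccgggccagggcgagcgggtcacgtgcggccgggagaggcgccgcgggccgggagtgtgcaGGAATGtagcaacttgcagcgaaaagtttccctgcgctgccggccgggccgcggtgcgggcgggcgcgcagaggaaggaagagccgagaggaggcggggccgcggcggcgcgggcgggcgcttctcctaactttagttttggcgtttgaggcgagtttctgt
TEAD3: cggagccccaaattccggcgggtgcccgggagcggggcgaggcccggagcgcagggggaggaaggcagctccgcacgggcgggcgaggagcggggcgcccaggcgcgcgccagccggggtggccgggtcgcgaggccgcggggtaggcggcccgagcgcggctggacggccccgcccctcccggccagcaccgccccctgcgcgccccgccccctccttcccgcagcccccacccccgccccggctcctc
LATS2: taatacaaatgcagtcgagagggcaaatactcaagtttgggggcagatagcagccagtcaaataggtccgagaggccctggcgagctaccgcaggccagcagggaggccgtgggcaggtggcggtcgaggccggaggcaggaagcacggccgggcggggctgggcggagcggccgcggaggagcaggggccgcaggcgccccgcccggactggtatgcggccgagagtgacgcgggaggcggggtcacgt
AMOTL2 motif site: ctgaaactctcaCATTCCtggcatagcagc
AJUBA motif site: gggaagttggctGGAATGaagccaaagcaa

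The YAP1 window lies at chr11:102110197-102110446 on the plus strand and the TEAD3 window at chr6:35497080-35497329 on the minus strand. The LATS2 window lies at chr13:21061587-21061836, also on the minus strand. None of the 3 overlaps an exon of its own gene in GENCODE 29, while the YAP1 window overlaps an exon of the non-coding RNA gene AP001527.2. The YAP1 window had a GC content of 72.0% and a CpG ratio (observed over expected) of 1.20, above that of 99.1% of all promoters of this length. In TEAD3 the GC content was 84.0% and the CpG ratio 0.84, and in LATS2 they were 69.6% and 0.89. YAP1 thus had the highest CpG ratio of these 3. Its FPKM overlapped that of LATS2 with ketotifen, and a link between level and CpG ratio was not tested. GGAATG began 162 bases before the start in YAP1 and was not in the TEAD3 or LATS2 window. The AMOTL2 site (chr3:134374499-134374528, minus strand) and the AJUBA site (chr14:22976884-22976913, minus strand) belong to the second of the RefSeq starts listed for each gene, and these windows overlap exons of their own genes. The windows of WWTR1, TEAD2 and LATS1 and the first windows of AMOTL2 and AJUBA, whose sequences are not shown, held no match. Of 35116 promoter windows, 11.9% hold this motif. A match describes letters only, and binding was not measured. RefSeq windows were found for 8 of the 10 genes, all but TEAD1 and TEAD4.

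**Figure D1:**
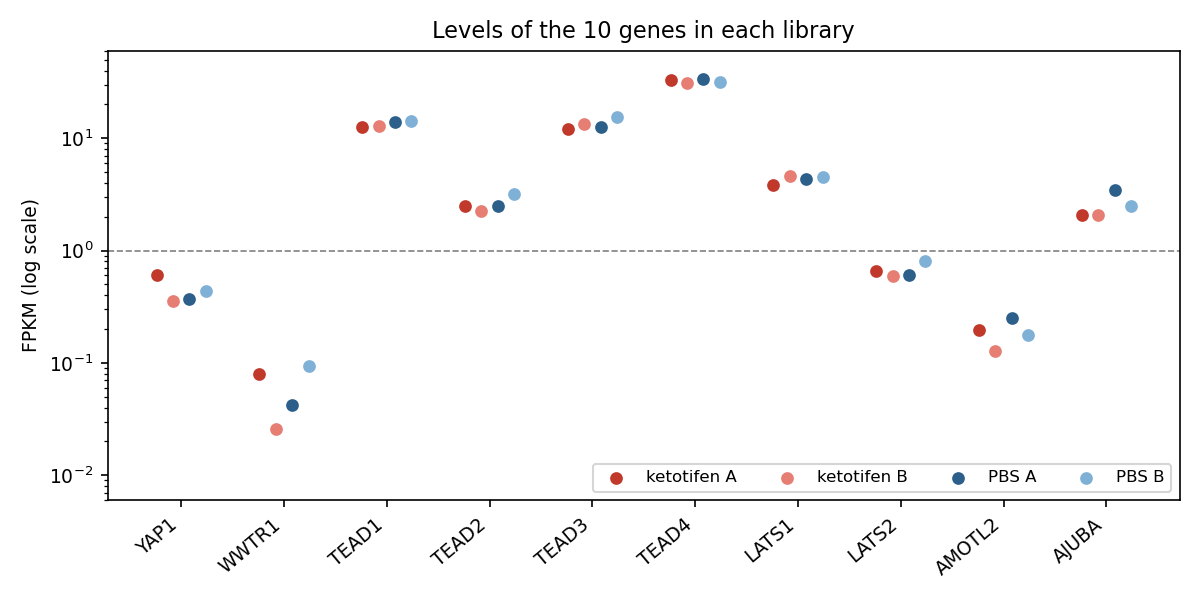
FPKM of the 10 genes in each library on a log axis; each point is 1 library, ketotifen left of PBS, and the dashed line marks 1 FPKM, the minimum mean for the test. TEAD4 is the highest in all 4 libraries and WWTR1 the lowest, with YAP1, LATS2 and AMOTL2 also under the line.

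The coactivators were almost absent in both arms. YAP1 (chromosome 11, 102110461 to 102233423, GRCh38) had 0.603 and 0.359 FPKM in the ketotifen libraries, against 0.368 and 0.432 FPKM in the PBS libraries. Ketotifen library A was the highest and library B the lowest, so the groups overlap. These values come from 137 and 75 reads with ketotifen and from 75 and 93 reads with PBS. Reads were thus counted for the gene in every library, and 30.5% of all genes in the table had a lower mean. WWTR1 (chromosome 3, 149517235 to 149736714) was lower still, with 0.0801 and 0.0256 FPKM under ketotifen and 0.0421 and 0.0946 FPKM under PBS. The groups overlap, with 17 and 5 reads against 8 and 19 reads. Libraries of the same group differ widely, and at this depth a moderate difference between the groups could be missed. YAP1 exceeded WWTR1 in each library, by 7.52 and 14.0 times with ketotifen and by 8.75 and 4.57 times with PBS. Of the merged exons, 628 bases of YAP1 also belong to AP000942.2 on the other strand, and 795 bases of WWTR1 to WWTR1-AS1. Neither of these antisense genes has values here. Whether counting used the strand is not stated in the sources used here. Part of the YAP1 and WWTR1 reads, and so of their ratios, could thus not be told apart from antisense reads.

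The TEAD genes, by contrast, were expressed. TEAD4 (chromosome 12, 2959330 to 3040673), a factor of trophectoderm and of many epithelial cancers, had 33.1 and 30.7 FPKM with ketotifen and 33.7 and 31.3 FPKM with PBS. The groups overlap almost fully, and 87.0% of all genes had a lower mean. TEAD1 (chromosome 11, 12674591 to 12944483), known for its role in heart and muscle, had 12.7 and 12.8 FPKM with ketotifen and 14.0 and 14.2 FPKM with PBS. Both ketotifen libraries lie below both PBS libraries, and libraries of a group differ little. TEAD3 (chromosome 6, 35473597 to 35497076), first described in placenta, had 11.98 and 13.3 FPKM with ketotifen and 12.7 and 15.4 FPKM with PBS, and the groups overlap. TEAD2 (chromosome 19, 49340595 to 49362457), known from early embryos and neural progenitors, was the lowest of the family, at 2.47 and 2.25 FPKM with ketotifen and 2.50 and 3.21 FPKM with PBS. Its groups do not overlap, but PBS library A stands close to ketotifen library A. In TEAD2, 319 bases of its merged exons (10.7%) also belong to CD37 on the other strand, which had 0.510 and 0.632 FPKM with ketotifen and 0.186 and 0.338 FPKM with PBS. The sources used here do not state whether counting used the strand, so part of the TEAD2 reads could not be told apart from those of CD37.

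Summed over the family, TEAD RNA came to 60.2 and 59.0 FPKM in the ketotifen libraries and to 62.9 and 64.1 FPKM in the PBS libraries. TEAD4 made up 53.5 ± 2.05% of this sum with ketotifen and 51.2 ± 3.34% with PBS, and TEAD2 3.95 ± 0.203% and 4.48 ± 0.735% in the same order. The TEAD sum exceeded the sum of YAP1 and WWTR1 by 88.2 and 153 times with ketotifen and by 153 and 122 times with PBS. RNA of the DNA-binding partners was thus present where RNA of the coactivators was close to missing. VGLL4, a repressor that competes with YAP for TEAD, had 35.6 ± 0.207 FPKM with ketotifen and 39.4 ± 0.105 FPKM with PBS. It exceeded the coactivator sum by 72.2 ± 28.2 times with ketotifen and 85.5 ± 15.2 times with PBS.

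**Figure D2:**
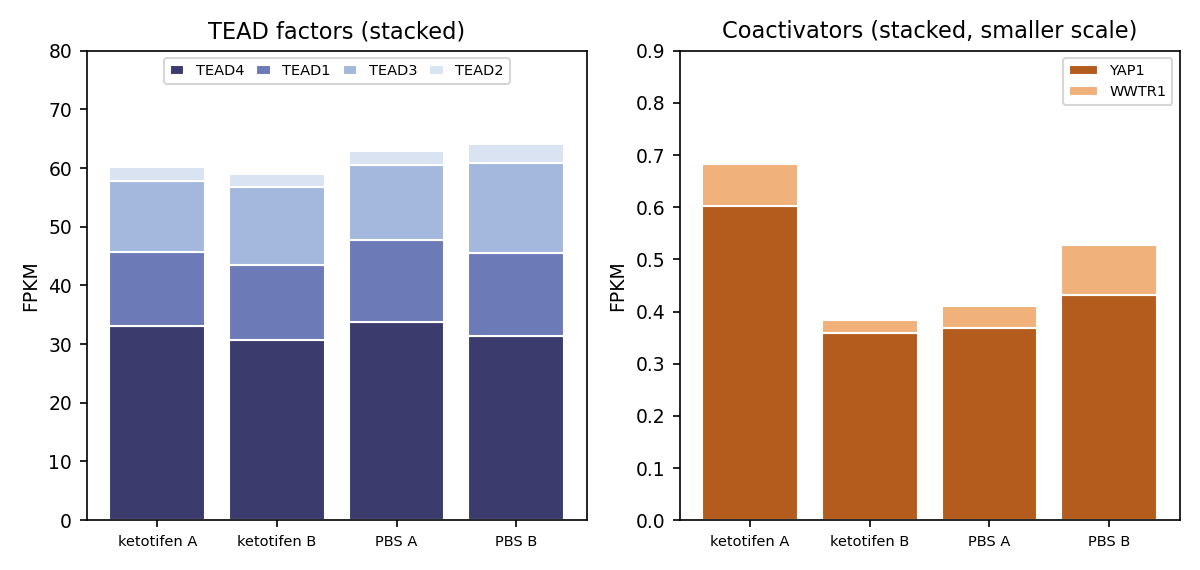
Stacked FPKM per library of the TEAD genes (left) and of YAP1 and WWTR1 (right, on a smaller scale), ketotifen libraries left of PBS libraries. The TEAD stacks reach 59.0 to 64.1 FPKM, with TEAD4 the largest share in each, while the coactivator stacks reach 0.384 to 0.683 FPKM.

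Of the kinases, LATS1 was the main one. LATS1 (chromosome 6, 149658153 to 149718256) had 3.84 and 4.62 FPKM with ketotifen and 4.36 and 4.52 FPKM with PBS. The ketotifen libraries lie on either side of the PBS libraries. Merged exons of LATS1 share 408 bases with AL358852.1 on the other strand, which has no values here, so the same limit on strand applies. LATS2 (chromosome 13, 20973032 to 21061547) had 0.658 and 0.593 FPKM with ketotifen and 0.609 and 0.813 FPKM with PBS, and these groups overlap as well. LATS1 exceeded LATS2 by 6.81 ± 1.38 times with ketotifen and by 6.36 ± 1.13 times with PBS.

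The adaptors were low. AJUBA (chromosome 14, 22971174 to 22982642) had 2.06 and 2.08 FPKM in the ketotifen libraries and 3.47 and 2.51 FPKM in the PBS libraries. Both ketotifen libraries were below both PBS libraries, and PBS library A was well above PBS library B. AMOTL2 (chromosome 3, 134355874 to 134375479) had 0.196 and 0.128 FPKM with ketotifen and 0.251 and 0.175 FPKM with PBS, with overlapping groups. It had 20 and 12 recovered reads against 23 and 17, and its step fits a gene length of 2778 bases where its merged exons hold 5984, so a common factor may remain in these read numbers.

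The order of levels was nearly the same in both arms. In the ketotifen group it ran TEAD4, TEAD1, TEAD3, LATS1, TEAD2, AJUBA, LATS2, YAP1, AMOTL2 and WWTR1, and in the PBS group AJUBA stood above TEAD2. Neighbours whose libraries overlap, and which therefore do not differ beyond their spread, were TEAD1 and TEAD3 in both arms, LATS2 and YAP1 with ketotifen, and AJUBA and TEAD2 with PBS. The other neighbours did not overlap within their arm.

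The comparison of ketotifen with PBS asked whether treatment altered these genes. None of the members differed past the threshold. TEAD1, TEAD2, TEAD3, TEAD4, LATS1 and AJUBA had a mean of at least 1 FPKM and were tested with limma on log2(FPKM + 1), with Benjamini-Hochberg adjustment over 10586 genes. Of these 6, 0 passed an adjusted p of 0.05, against a background of 0.123% of all tested genes (13 genes). At an unadjusted p under 0.05 there were 2 of 6, AJUBA and TEAD1, where 20.4% of all tested genes lay. Limma's voom on the recovered reads also called 0 of 6 (background 6.67%). A voom fit extended to genes with a mean of at least 10 reads, chosen after the data were seen, called 0 of all 10 (background 4.4%, and 21.3% of genes at an unadjusted p under 0.05).

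The limma fit was repeated under other settings, and 0 members passed in any of those that kept all libraries. The share of all tested genes called there was 0.123% and 0.113% with pseudocounts of 0.1 and 5, 0.35% with a minimum mean of 5 FPKM and 0% with no minimum (13.8% at an unadjusted p under 0.05). After rescaling it was 0.151% (equal sums), 0.0189% (median ratios) and 0.0283% (quantiles). Without ketotifen library A or B, 0 members passed, with 0.265% and 0.0945% of all tested genes called.

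All 6 tested changes were negative, as were those of 5895 of the 10586 tested genes. The median change was -0.14 over the 6 genes and -0.02 over all tested genes. In 3 of the 6 (TEAD1, TEAD2 and AJUBA) the ketotifen libraries lay below both PBS libraries, which was so in 31.2% of all tested genes, and in 0 of the 6 they lay above both, which was so in 23.2% (54.4% either way). An exact two-sided permutation test could reach no p under 0.333 with 2 against 2 libraries and was not run.

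AJUBA had the largest change of the 6, with 2.07 ± 0.0158 FPKM under ketotifen and 2.99 ± 0.680 FPKM under PBS (log2 change -0.37 ± 0.12 SE, limma adjusted p = 0.160). Its 95% confidence interval ran from -0.64 to -0.10. By voom the change was -0.51 ± 0.15 SE (adjusted p = 0.0545). Fits without a PBS library have 1 PBS library, so their spread comes from the ketotifen libraries and the trend over genes, and the lone library is assumed to vary like them. Under that assumption the limma fit without PBS library B called AJUBA (change -0.54, adjusted p = 0.00533, background 3.98%), and without PBS library A it did not (change -0.20, adjusted p = 0.257). AJUBA was thus lower in both ketotifen libraries, and the size of the difference turned on PBS library A.

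TEAD1 averaged 12.7 ± 0.0553 FPKM with ketotifen and 14.1 ± 0.102 FPKM with PBS, a log2 change of -0.14 ± 0.06 SE (limma adjusted p = 0.233, voom adjusted p = 0.116). TEAD2 averaged 2.36 ± 0.156 and 2.85 ± 0.502 FPKM in the same order, with a change of -0.19 ± 0.11 SE (limma adjusted p = 0.340). TEAD3 averaged 12.6 ± 0.905 and 14.0 ± 1.91 FPKM, with a change of -0.14 ± 0.09 SE (limma adjusted p = 0.434). Both are set by PBS library B, their highest library. Without PBS library A, TEAD2 (change -0.33, adjusted p = 0.0424) and TEAD3 (change -0.27, adjusted p = 0.0175) passed, under the same assumption about a lone PBS library, in a fit that called 18.3% of all tested genes, and without PBS library B their changes were -0.06 and -0.01.

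TEAD4 averaged 31.9 ± 1.70 FPKM with ketotifen and 32.5 ± 1.72 FPKM with PBS. Its log2 change was -0.03, with a 95% interval from -0.18 to 0.12. LATS1 averaged 4.23 ± 0.553 and 4.44 ± 0.115 FPKM in the same order, with a change of -0.06 and an interval from -0.27 to 0.15. For these genes the intervals leave no room for changes as large as that fitted for AJUBA.

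The 4 genes under 1 FPKM were compared by the extended voom fit on reads. YAP1 had a log2 change of 0.23 with a 95% interval from -0.42 to 0.89 (voom adjusted p = 0.726), and ketotifen library B lay below both PBS libraries in FPKM, so the sign rests on ketotifen library A. WWTR1 had a change of -0.44 (interval -2.00 to 1.12), AMOTL2 one of -0.39 (interval -1.61 to 0.84) and LATS2 one of -0.17 (interval -0.69 to 0.35). The intervals are wide, and for WWTR1 and AMOTL2 they hold both a 2-fold fall and a rise.

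**Figure D3:**
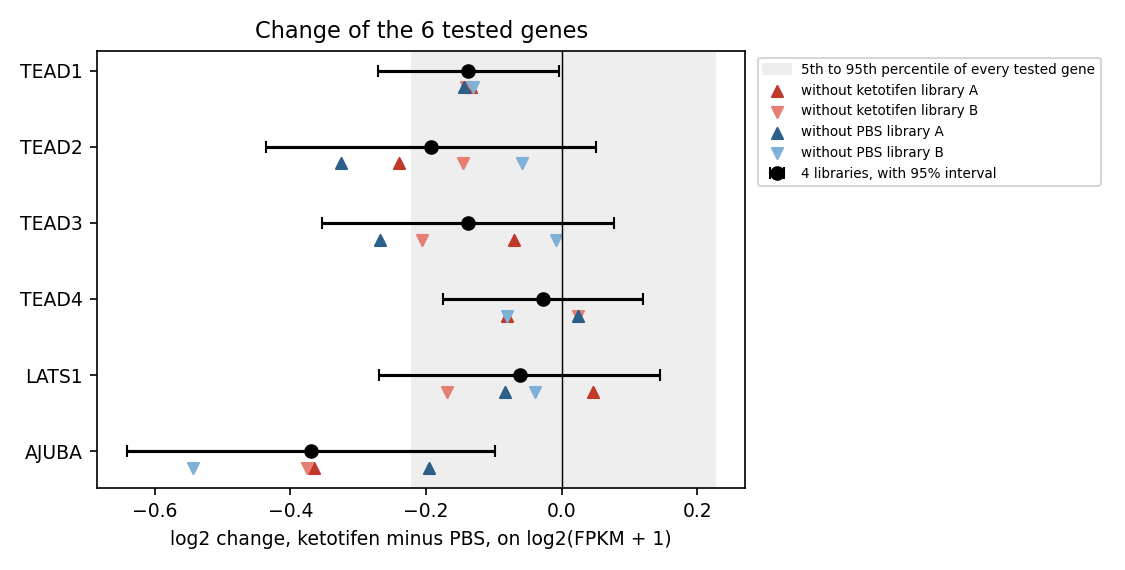
Log2 change (ketotifen minus PBS, on log2(FPKM + 1)) of the 6 tested genes: black points with 95% intervals from all 4 libraries, triangles without 1 library each, and a grey band from the 5th to the 95th percentile of all tested genes (-0.22 to 0.23). AJUBA alone has its black point outside the band, and the triangles of TEAD2, TEAD3 and AJUBA spread widest with the PBS libraries.

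Known targets of YAP and TAZ were mostly low. Of 21 signature genes in the table, LATS2 and AMOTL2 among them, 6 had a mean of at least 1 FPKM and 0 passed in limma (2 at an unadjusted p under 0.05, background 20.4%), while voom called 1 of these 6 lower (background 3.32%) and 0 higher (background 3.35%). Their median change was -0.16. CCN2, the connective tissue growth factor and a standard target, had 0.921 and 1.04 FPKM with ketotifen and 1.48 and 1.27 FPKM with PBS (log2 change -0.26 ± 0.10 SE, limma adjusted p = 0.200). Its groups do not overlap, yet the voom adjusted p was 0.235. CCN2 reached the minimum mean of 1 FPKM only through the PBS group, and the median over the other 5 tested genes was -0.16 as well. ASAP1, a regulator of ARF GTPases, had 11.4 and 10.9 FPKM with ketotifen and 12.5 and 14.8 FPKM with PBS, and it is the gene that voom called (limma change -0.27 ± 0.08 SE, limma adjusted p = 0.153, voom adjusted p = 0.0248). DOCK5, an activator of RAC, averaged 3.25 ± 0.183 and 3.76 ± 0.150 FPKM in the same order (limma adjusted p = 0.287).

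The highest signature genes were GADD45A and CRIM1. GADD45A, a stress and p53 target, had 64.8 ± 2.33 FPKM with ketotifen and 67.7 ± 1.70 FPKM with PBS, and CRIM1, a BMP-binding membrane protein, 13.6 ± 0.182 and 13.5 ± 0.345 FPKM. Neither passed (limma adjusted p = 0.541 and 0.968).

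In the extended voom fit 15 signature genes were tested, of which 1 was called lower (ASAP1, background 2.24%) and 0 higher (background 2.17%). The change was negative in 13 of the 15, as in 7238 of 12744 tested genes. In 10 of the 15 both ketotifen libraries lay below both PBS libraries, against 30.6% of tested genes, and in 0 they lay above, against 21%. The median was -0.29, beside -0.03 over all tested genes. NT5E reached the mean of 10 reads over the 4 libraries only through the PBS group, so the counts are also given without it, as description only. Over the other 14 genes, a choice made after the data were seen, 12 changes were negative, both ketotifen libraries lay below both PBS libraries in 9, and the median was -0.26. Several of the low genes, named after their values were seen, had few reads. MYOF, a membrane repair protein, had 11 and 11 reads with ketotifen and 32 and 44 with PBS (voom adjusted p = 0.0759). NT5E, the ectonucleotidase CD73, had 4 and 6 reads against 21 and 22 (voom adjusted p = 0.0974), and CCN1, the matricellular protein CYR61, had 32 and 33 against 59 and 52 (voom adjusted p = 0.258). None of these 3 passed, and the share of low genes in the list was known when it was described, so its count is not a test. ANKRD1, another standard target, was not analysed here.

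**Figure D4:**
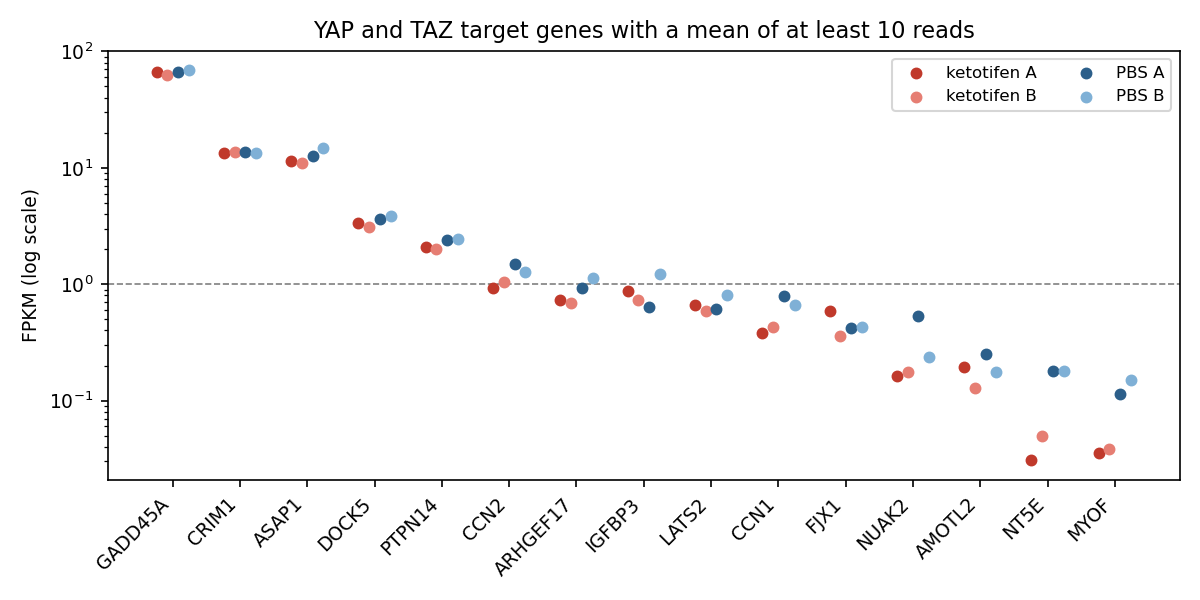
FPKM per library, on a log axis, of the 15 YAP and TAZ signature genes with a mean of at least 10 reads, ordered by level, ketotifen left of PBS; the dashed line marks 1 FPKM. Only 5 genes lie above the line in every library, and the ketotifen points of CCN1, NT5E and MYOF sit below their PBS points.

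The kinases and scaffolds upstream of LATS were expressed, unlike the coactivators they regulate. All 19 genes of this list were in the table and 17 were tested. In limma 0 of 17 passed, with 4 at an unadjusted p under 0.05 (20.4% of all tested genes), and the median change was -0.07. Voom called 1 lower and 0 higher, where it called 3.32% and 3.35% of all tested genes. That gene was MOB1A, the LATS coactivating subunit and the highest of the list, with 25.9 and 26.5 FPKM under ketotifen and 29.8 and 30.9 FPKM under PBS (limma change -0.20 ± 0.05 SE, limma adjusted p = 0.125, voom adjusted p = 0.0287). SAV1, the scaffold of MST kinases, averaged 8.29 ± 0.172 FPKM with ketotifen and 10.02 ± 0.346 FPKM with PBS (limma adjusted p = 0.122, voom adjusted p = 0.0507). TAOK3, a kinase that can activate MST kinases, averaged 3.30 ± 0.214 and 4.18 ± 0.429 FPKM (limma adjusted p = 0.169), and MAP4K4, a kinase acting on LATS in parallel to MST, 24.1 ± 0.760 and 25.6 ± 0.414 FPKM (limma adjusted p = 0.440). The MST kinases, given here outside the rule for named genes, were present too: STK3 averaged 2.18 ± 0.0437 FPKM with ketotifen and 2.27 ± 0.0150 FPKM with PBS, and STK4 6.22 ± 0.405 and 6.49 ± 0.209 FPKM.

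**Figure D5:**
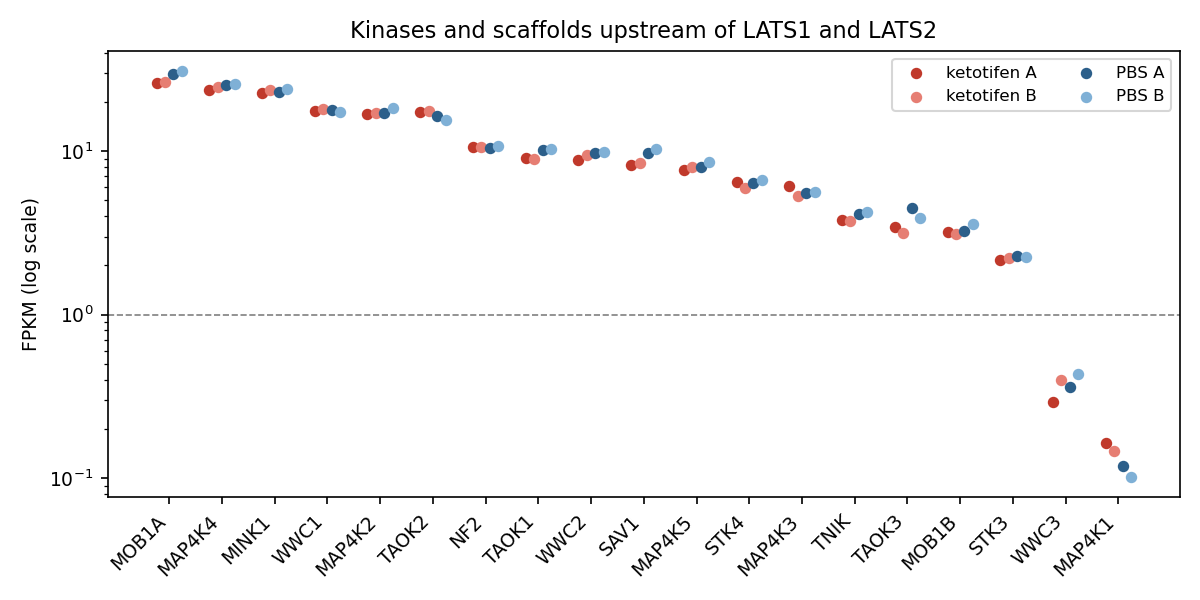
FPKM per library, on a log axis, of the 19 kinases and scaffolds upstream of LATS1 and LATS2, ordered by level, ketotifen left of PBS; the dashed line marks 1 FPKM. All but WWC3 and MAP4K1 lie above the line, and both ketotifen points of MOB1A and SAV1 lie below their PBS points.

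Junction and polarity regulators had 21 genes in the table and 16 tested. In limma 0 passed (4 at an unadjusted p under 0.05, background 20.4%), with a median change of -0.05, and voom called 1 lower (background 3.32%) and 0 higher (background 3.35%). The called gene was TJP1, the tight junction scaffold ZO-1, with 12.4 and 12.1 FPKM under ketotifen and 14.1 and 15.2 FPKM under PBS (limma adjusted p = 0.122, voom adjusted p = 0.0152). AMOT, the founding angiomotin, averaged 1.87 ± 0.0746 FPKM with ketotifen and 2.33 ± 0.0601 FPKM with PBS (limma adjusted p = 0.207). RASSF1, a scaffold that binds MST kinases, averaged 12.6 ± 0.318 and 10.9 ± 0.668 FPKM in the same order (limma adjusted p = 0.177). SCRIB, a polarity scaffold, had the highest level of the list, with 64.4 ± 1.31 FPKM under ketotifen and 61.0 ± 4.16 FPKM under PBS, and did not pass (limma adjusted p = 0.495). Of the relatives of AMOTL2 and AJUBA, AMOTL1 had 13.5 and 14.1 FPKM with ketotifen and 13.6 and 14.4 FPKM with PBS, and LIMD1 11.3 and 11.2 against 11.3 and 11.6 FPKM. These relatives, named after their values were seen, lay above AMOT, AMOTL2 and AJUBA in every library, whereas WTIP, another AJUBA relative, had 0.0672 and 0.0215 FPKM with ketotifen and 0.0552 and 0.0313 FPKM with PBS.

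The STRIPAK complex, a phosphatase assembly that removes activating phosphates from MST kinases, had 17 genes in the table and 16 tested. In limma 0 passed (3 at an unadjusted p under 0.05, background 20.4%), with a median change of -0.04, while voom called 2 lower (background 3.32%) and 1 higher (background 3.35%). STRN, a scaffold subunit, was lower, at 4.88 ± 0.205 FPKM with ketotifen and 5.90 ± 0.215 FPKM with PBS (limma adjusted p = 0.157, voom adjusted p = 0.0185), as was the kinase STK24, at 13.1 ± 0.0297 and 15.0 ± 0.360 FPKM (voom adjusted p = 0.0369). PPP2R1A, the phosphatase scaffold, was higher by voom, at 61.4 ± 0.801 FPKM with ketotifen and 54.4 ± 2.72 FPKM with PBS (voom adjusted p = 0.0457), but no longer in the extended voom fit (adjusted p = 0.0563). Its catalytic partner PPP2CA averaged 44.4 ± 1.77 and 41.0 ± 1.15 FPKM (limma adjusted p = 0.310). Of the TEAD cofactors, only VGLL4 was tested (log2 change -0.15 ± 0.05 SE, limma adjusted p = 0.187, voom adjusted p = 0.0860), and VGLL3 had 0.359 and 0.263 FPKM with ketotifen and 0.425 and 0.389 FPKM with PBS. VGLL1 and VGLL2 were not analysed here.

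Marker lists of lineages with known differences in YAP level were measured beside these genes. Of 5 tested neuroendocrine markers 0 passed in limma (3 at an unadjusted p under 0.05, background 20.4%), and voom called 2 lower, NCAM1 and ENO2 (background 3.32%). The extended voom fit called only NCAM1 of them (ENO2 adjusted p = 0.0712). The summed list had 707 and 718 FPKM with ketotifen and 695 and 672 FPKM with PBS. Basal epithelium markers summed to 13.3 and 14.0 FPKM with ketotifen and to 15.7 and 16.6 FPKM with PBS, nearly all of it ITGA6 and ITGB4, of which voom called ITGA6 lower (adjusted p = 0.0435), but not in the extended fit (adjusted p = 0.0538). Luminal markers summed to 889 and 869 FPKM with ketotifen and to 842 and 790 FPKM with PBS, with 0 of 5 tested called by either tool. Fibroblast markers summed to 2.57 and 2.17 FPKM against 2.87 and 3.15 FPKM, and immune markers to 2.94 and 3.16 FPKM against 2.81 and 3.99 FPKM, again with none called. Most of the fibroblast sum was COL1A1 (2.39 and 1.95 FPKM with ketotifen, 2.53 and 2.75 FPKM with PBS). Nearly all of the immune sum was CD68 (2.94 and 3.11 FPKM with ketotifen, 2.77 and 3.97 FPKM with PBS), while PTPRC had 0 to 6 reads in each library. The part of these markers in the values of AJUBA and the signature genes was not tested.

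Calls in these lists changed most without PBS library A. Under the same assumption about a lone library, the limma fit then called 18.3% of all tested genes, among them SAV1, MOB1A, TJP1, TP53BP2, STRN, ASAP1, NCAM1, ENO2, ITGA6 and CD68 lower and RASSF1, PPP2R1A, UCHL1, KRT8 and KRT18 higher. Without PBS library B it called NCAM1 lower and no other list gene.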

How the data were processed

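RNA of LASCPC-01 cells was measured in 4 libraries, 2 with ketotifen and 2 with PBS. Per the labels' protocols, RNA was extracted with TRIzol and made into stranded mRNA libraries. Tools named in the submitters' processing notes are fastp, HISAT2 and HTSeq, and the build is GRCh38, with no versions or roles. The deposited table holds FPKM values made by the authors, while the sources used here do not state the annotation, gene lengths or scaling total. The columns carry the letters A and B, which were not matched to the labels' replicate numbers, and no label says that libraries came from separate cultures, so the p-values cover only library-to-library spread, possibly technical.

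The members, lists and the rule for named genes were chosen with earlier results of these data known. That rule takes all 10 members and, of each list, the 3 tested genes with the smallest p and the 2 highest rows, of which some are not reported here. The part of it on genes patterned like YAP1 or WWTR1 did not apply, since both lay under 1 FPKM. The lists cover the LATS-activating cascade, junction and polarity regulators, STRIPAK, VGLL cofactors, YAP and TAZ targets, and markers of neuroendocrine, luminal, basal, fibroblast, endothelial and immune cells.

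Genes whose mean reached 1 FPKM (10586) were compared on log2(FPKM + 1) by limma 3.58.1 under R 4.3.3, using a mean-variance trend and two-sided tests, with Benjamini-Hochberg adjusted p under 0.05 called. Fold changes on this scale understate those of low genes. Whole reads, up to a common factor, were recovered from the FPKM steps for 99.98% of tested genes (Python 3.11.15) within the rounding of the printed digits. Voom was run on them as an alternative. Depths relative to PBS library A were 1.06 for PBS library B, 1.12 for ketotifen library A and 1.03 for ketotifen library B. Both steps were tested on simulated data. Gene coordinates come from GENCODE 29 and promoter windows from RefSeq (GRCh38.p14), whose build matches. Other pseudocounts, filters and scalings and each library left out were also tried.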

Additional observations from a re-analysis of the deposited data

How the results depend on the processing

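Of the members tested, 0 were called under each pseudocount, filter and scaling tried and in both voom fits. YAP1, WWTR1, LATS2 and AMOTL2 were tested only with no filter and in the extended voom fit. With a mean of at least 5 FPKM only TEAD1, TEAD3 and TEAD4 were tested. Leaving out 1 library gave 0 to 2 called members (AJUBA without PBS library B, TEAD2 and TEAD3 without PBS library A), and 10 to 1936 called genes over the whole table, where all 4 libraries gave 13. The whole-table count was also 0 with no filter (limma, 2260 genes at an unadjusted p under 0.05), 27 with a mean of at least 5 FPKM, 2 with median ratios equalized and 3 with quantiles equalized. Voom called 706, and 561 in the extended fit, which was chosen after the data were seen. The changes of AJUBA, TEAD1, TEAD2 and TEAD3 stayed negative in every fit run. With 1 library left out, TEAD4 ran from -0.081 (without ketotifen library A) to 0.024 (without PBS library A) and 0.025 (without ketotifen library B), and LATS1 from -0.17 (without ketotifen library B) to 0.046 (without ketotifen library A), none past the threshold; the cause was not tested. No paired analysis was possible because the columns carry letters that no label pairs across the groups. Depth limits WWTR1 and AMOTL2, with 5 to 23 reads per library.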
